A study of Mus musculus with 6 samples.

Results

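Slc15a2, which encodes the peptide transporter PEPT2, was examined beside 9 other genes for transporters of glucose, lactate and amino acids in mouse tibialis anterior, a muscle of the lower hindlimb in which fast fibres prevail. The 10 genes were taken by symbol from 41025 genes in the expression tables. Slc15a2 was chosen by its difference in FPKM between the labels in these same libraries, so that difference is described here and not tested. The other 9 were listed by function, with earlier results of these data known, for comparison with it. The study sequenced total RNA from 3 libraries labelled Mettl21e KO and 3 labelled wild type, all from C57BL/6 mice aged 8 weeks. Mettl21e encodes a muscle-enriched protein methyltransferase. How the gene was deleted, in which cells, and whether each library came from its own mouse are details not given in the sources used here. The p-values therefore measure the spread between these libraries.

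A muscle fibre takes up sugars, amino acids and short peptides, and exports lactate, through carrier proteins of the solute carrier (SLC) superfamily in its surface membrane. Glucose enters through GLUT proteins, of which the insulin- and contraction-responsive GLUT4 is the main form in adult fibres. Lactate and protons leave or enter together through monocarboxylate transporters, and amino acids enter through sodium-coupled carriers and through exchangers built from a light and a heavy chain. PEPT2 couples the uptake of short peptides to protons and is best known from kidney, lung and glia.

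Levels were deposited as FPKM, fragments scaled by gene length and library total. Between 8476591 and 10435095 fragments stood behind the knockout-labelled libraries and between 8842349 and 10856669 behind wild-type-labelled ones. Muscle markers were abundant in every library, with Acta1, skeletal muscle actin, at a mean of 15539 FPKM in knockout-labelled libraries and 17580 FPKM in wild-type-labelled ones. The transcript of the targeted gene does not tell the labels apart. Mettl21e was at 1.64, 1.45 and 1.88 FPKM in the knockout-labelled libraries and at 2.46, 0.309 and 1.23 FPKM in wild-type-labelled ones (exact two-sided permutation p = 0.7, the smallest p that 3 libraries a label can give being 0.1). Each direction below is therefore between labels.

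Slc15a2 stood lower in all 3 knockout-labelled libraries. The gene (ENSMUSG00000022899, chr16:36750177-36784962 in mm10, minus strand) was at 1.88, 1.33 and 2.56 FPKM in knockout-labelled libraries 1, 2 and 3. It was at 4.85, 6.32 and 6.78 FPKM in wild-type-labelled libraries 1, 2 and 3. The highest library labelled knockout lay below the lowest labelled wild type, so the groups did not overlap. The means were 1.92 ± 0.616 FPKM in knockout-labelled libraries and 5.98 ± 1.01 FPKM in wild-type-labelled ones (SD, n = 3 each), a ratio of 0.322. On the log2(FPKM + 1) scale, which understates differences of low genes, the difference was -1.27 (SE 0.19). Since this contrast chose the gene, no p is attached to it.

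**Figure D1:**
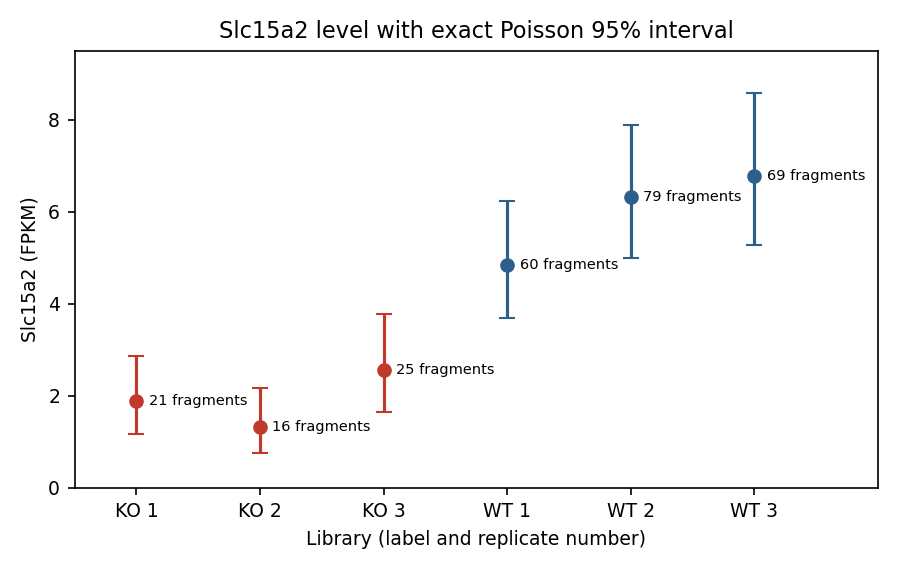
Slc15a2 in FPKM (vertical axis) in each library, labelled knockout (KO, red) left of labelled wild type (WT, blue), with bars for the exact Poisson 95% interval of the fragments behind each value. The highest value of a library labelled knockout, 2.56 FPKM, lies below the lowest of a library labelled wild type, 4.85 FPKM.

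Few fragments carried these values. Whole fragments could be recovered from the FPKM, and Slc15a2 had 21, 16 and 25 fragments in the knockout-labelled libraries against 60, 79 and 69 in wild-type-labelled ones. Summed, 62 fragments labelled knockout (exact Poisson 95% interval 47.5 to 79.5) stood against 208 labelled wild type (181 to 238). Per length and depth these sums were 1.88 FPKM (1.44 to 2.41) in knockout-labelled libraries and 5.93 FPKM (5.16 to 6.80) in wild-type-labelled libraries. The intervals cover counting error only. A processed pseudogene, Gm8425, lies within Slc15a2 on the other strand but shares 0 exonic bases with it, and 0.534% of the 50-base words in Slc15a2 transcripts also occur in transcripts of other genes.

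Across all genes, 0 of 11383 tested passed limma at a Benjamini-Hochberg adjusted p of 0.05 (0.00%), while 523 (4.59%) had an unadjusted p under 0.05, 377 of them (3.31%) with the lower level in the knockout-labelled libraries. No overlap between labels was found for 1079 genes (9.48%), 642 (5.64%) lower and 437 (3.84%) higher in the knockout-labelled libraries. Slc15a2 was among those 642. Of the other 9 transporters, 0 passed the test, 0 had an unadjusted p under 0.05 and 0 had groups that did not overlap. Their log2 differences lay between -0.12 and 0.18, with 5 higher and 4 lower in the knockout-labelled libraries and a median of 0.02, against -0.02 over all genes tested. The scale understates low genes here too, such as Slc2a3 and Slc7a5, whose ratios of mean FPKM were 0.859 and 1.26.

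**Figure D2:**
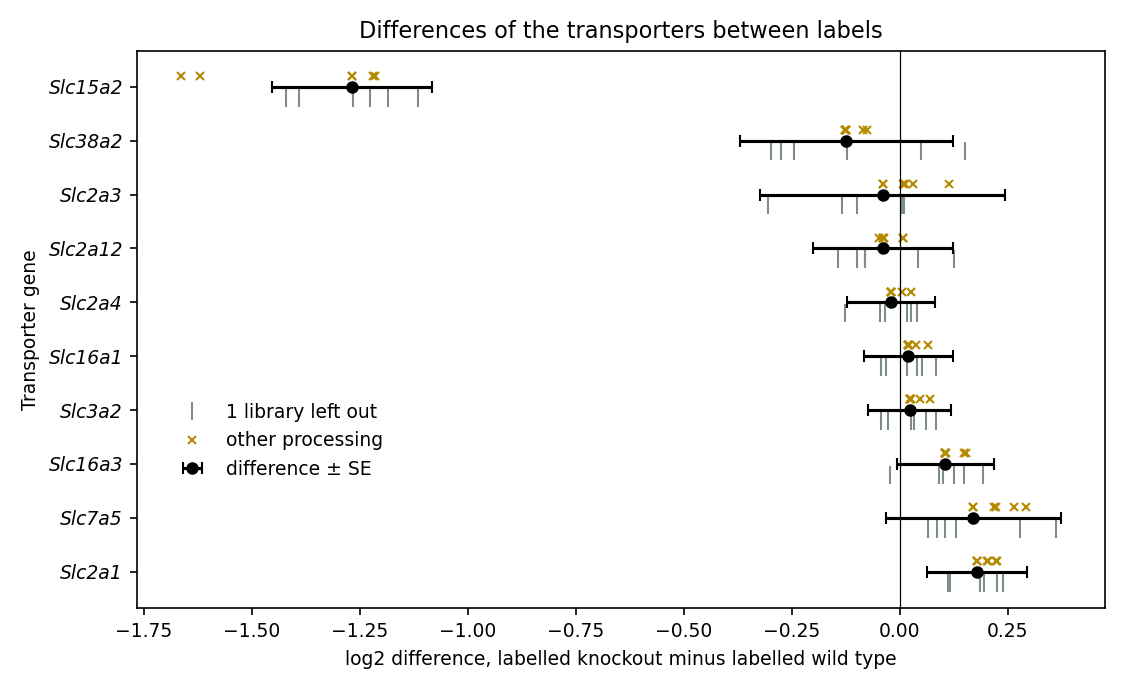
Log2 difference in log2(FPKM + 1), labelled knockout minus labelled wild type, for each of the 10 transporters (black points, bars ± SE, 3 libraries per label), with the values after leaving out 1 library (grey ticks) and under other processing (crosses). Slc15a2 lies at -1.27, and the other 9 lie between -0.12 and 0.18.

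Among the glucose transporters, Slc2a4 was by far the most abundant and did not separate the labels. Slc2a4 (ENSMUSG00000018566, chr11:69942539-69948188, minus strand), which encodes GLUT4, was at 529, 420.1 and 427 FPKM in the knockout-labelled libraries and at 488, 447 and 455 FPKM in wild-type-labelled ones. Library 1 labelled knockout was the highest of the 6, and the other two of that label were the lowest. The log2 difference was -0.02 (95% interval -0.25 to 0.21, limma adjusted p = 0.995). In every library Slc2a4 held most of the summed FPKM of the 4 SLC2 transporters, 97.0 ± 0.297% in knockout-labelled libraries and 97.2 ± 0.250% in wild-type-labelled ones (SD, n = 3 each).

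Slc2a1 (ENSMUSG00000028645, chr4:119108711-119137983, plus strand) encodes GLUT1, the basal glucose carrier that is also abundant in endothelium and red blood cells. It was at 6.51, 7.07 and 7.94 FPKM in the knockout-labelled libraries, against 5.61, 6.36 and 6.69 FPKM in wild-type-labelled ones. Libraries 1 and 2 labelled wild type lay below every library labelled knockout, and library 3 lay within their range. Its log2 difference of 0.18 was the largest positive of the 9 (95% interval -0.09 to 0.45, limma adjusted p = 0.988). By ratio of mean FPKM the lower gene Slc7a5 stood above it, at 1.26 against 1.15 for Slc2a1. The summed FPKM of 8 endothelial markers ran from 166 to 204 in knockout-labelled libraries and from 158 to 235 in wild-type-labelled ones, and that of 5 red blood cell markers from 473 to 783 and from 458 to 849. None of these markers was at 0 in every library, both sums overlapped between labels, and their part in the Slc2a1 values was not tested. Slc2a1 shares 105 exonic bases with the antisense gene Gm12868, and since strand assignment is nowhere stated, its value is uncertain to that extent.

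The remaining glucose carriers were low. Slc2a12 (ENSMUSG00000037490, chr10:22645011-22704285, plus strand), encoding GLUT12, was at 6.68, 6.21 and 4.29 FPKM in the knockout-labelled libraries and at 6.64, 5.45 and 5.45 FPKM in wild-type-labelled ones (log2 difference -0.04, 95% interval -0.41 to 0.33). The lowest and the highest of the 6 values both came from knockout-labelled libraries. Tbpl1 overlaps 407 of its exonic bases on the other strand, so the level of Slc2a12 is uncertain. Slc2a3 (ENSMUSG00000003153, chr6:122727809-122801640, minus strand) encodes GLUT3, a high-affinity carrier of neurons and white blood cells. It was at 1.37, 0.942 and 0.955 FPKM in the knockout-labelled libraries and at 0.968, 0.479 and 2.35 FPKM in wild-type-labelled ones, from 9 to 36 fragments. Library 3 labelled wild type was the highest and library 2 labelled wild type the lowest, so the values of that label enclosed those of the other (log2 difference -0.04, 95% interval -0.69 to 0.61). In library 3 labelled wild type the summed FPKM of 6 neutrophil markers, none of them at 0 in every library, was 145, against 1.63 to 14.5 in the knockout-labelled libraries and 1.56 and 8.04 in libraries 1 and 2 labelled wild type. The part of those cells in the Slc2a3 value was not tested. Without library 3 labelled wild type the mean of Slc2a3 was under the filter of 1 FPKM, so that it could not be tested.

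Of the lactate transporters, the form for export was abundant and exceeded the other in every library. Slc16a3 (ENSMUSG00000025161, chr11:120948480-120960868, plus strand) encodes MCT4, which exports lactate from fast glycolytic fibres. It was at 319.6, 237 and 252 FPKM in the knockout-labelled libraries and at 246, 244 and 256 FPKM in wild-type-labelled ones. Library 1 labelled knockout stood above the other 5, and the label wild type spanned a narrow range inside that of the label knockout (log2 difference 0.11, 95% interval -0.15 to 0.36, limma adjusted p = 0.988). Slc16a1 (ENSMUSG00000032902, chr3:104638668-104658462, plus strand) encodes MCT1, the carrier of oxidative fibres. Slc16a1 was at 17.4, 15.4 and 15.6 FPKM in the knockout-labelled libraries and at 17.4, 15.8 and 14.4 FPKM in wild-type-labelled ones. Its groups overlapped almost fully (log2 difference 0.02, 95% interval -0.22 to 0.25, limma adjusted p = 0.995). The ratio of Slc16a3 to Slc16a1 in FPKM was 16.7 ± 1.54 in knockout-labelled libraries and 15.7 ± 1.82 in wild-type-labelled ones (SD, n = 3 each, exact two-sided permutation p = 0.5). Scaled by the longest coding transcript of each gene, the ratio was 5.95 ± 0.550 in knockout-labelled libraries and 5.62 ± 0.650 in wild-type-labelled ones.

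Slc38a2 varied widely between libraries of a label, with a coefficient of variation of 24.9% for the label knockout and 36.4% for the label wild type. Slc38a2 (ENSMUSG00000022462, chr15:96687392-96699730, minus strand) encodes SNAT2, a sodium-coupled carrier of small neutral amino acids whose transcription responds to amino acid supply. It was at 33.9, 26.3 and 20.5 FPKM in the knockout-labelled libraries and at 42.6, 23.2 and 24.2 FPKM in wild-type-labelled ones. In both labels library 1 was the highest. The log2 difference was -0.12 (95% interval -0.69 to 0.44, limma adjusted p = 0.988), and it was 0.05 when library 3 labelled knockout was left out and 0.15 when library 1 labelled wild type was. Slc38a3, the related glutamine carrier SNAT3, had the same highest libraries, at 184, 132 and 98.2 FPKM in the knockout-labelled libraries and at 201, 99.1 and 110.0 FPKM in wild-type-labelled ones.

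Slc7a5 and Slc3a2 encode the light chain LAT1 and the heavy chain 4F2hc of an exchanger that brings in leucine and other large neutral amino acids. Slc3a2 (ENSMUSG00000010095, chr19:8706882-8723369, minus strand) was at 35.4, 32.1 and 29.6 FPKM in the knockout-labelled libraries and at 29.6, 33.6 and 32.2 FPKM in wild-type-labelled ones (log2 difference 0.02, 95% interval -0.20 to 0.24). Slc7a5 (ENSMUSG00000040010, chr8:121881150-121907694, minus strand) was at 0.861, 1.80 and 1.73 FPKM in the knockout-labelled libraries and at 1.04, 0.962 and 1.496 FPKM in wild-type-labelled ones, from 12 to 27 fragments. Library 1 labelled knockout held the lowest Slc7a5 value of the 6, and libraries 2 and 3 of that label held the highest (log2 difference 0.17, 95% interval -0.29 to 0.63, limma adjusted p = 0.988). The heavy chain exceeded the light chain in every library, by a factor of 41.2, 17.8 and 17.1 in FPKM in the knockout-labelled libraries and 28.6, 34.9 and 21.6 in wild-type-labelled ones (exact two-sided permutation p = 0.8). The heavy chain also pairs with other light chains. Among these, Slc7a6 was at 4.95 ± 0.431 FPKM in knockout-labelled libraries and 4.66 ± 0.668 FPKM in wild-type-labelled ones, and Slc7a8 at 2.89 ± 0.870 and 3.29 ± 1.34 FPKM in the same order (SD, n = 3 each). Both were chosen after their values were seen.

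**Figure D3:**
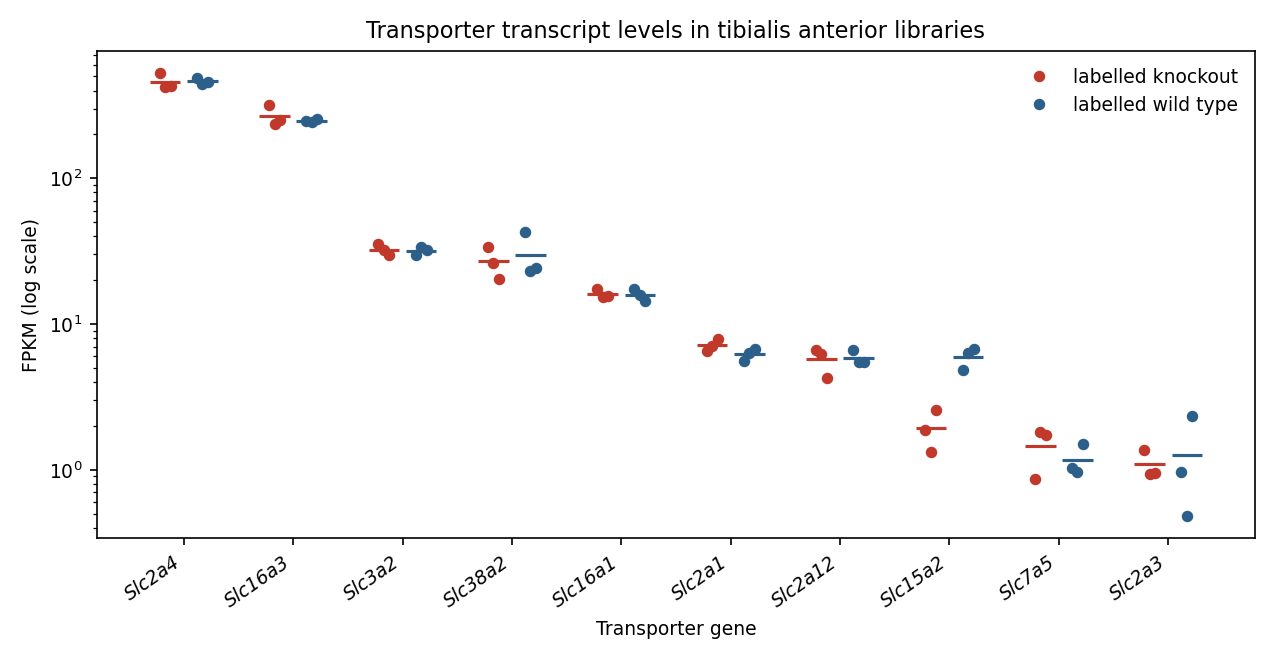
FPKM on a log axis (vertical) of the 10 transporters in each library (points) with the mean of each label (lines), labelled knockout (red) left of labelled wild type (blue). Slc2a4 and Slc16a3 lie above 200 FPKM in every library, and Slc15a2 is the gene whose points do not overlap between labels.

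In order of mean FPKM, Slc2a4 came first and Slc16a3 second in both labels, followed by Slc3a2, Slc38a2, Slc16a1 and Slc2a1. Slc15a2 came 8th among the 10 in knockout-labelled libraries and 7th in wild-type-labelled ones. In wild-type-labelled libraries the values of Slc2a1, Slc15a2 and Slc2a12 overlapped and could not be ordered. In knockout-labelled libraries Slc15a2 lay below Slc2a12 without overlap (1.33 to 2.56 against 4.29 to 6.68 FPKM) and overlapped with Slc7a5. Slc3a2 and Slc38a2 overlapped in both labels, as did Slc7a5 and Slc2a3. From Slc2a4 to Slc16a3, from there to Slc3a2, from Slc38a2 to Slc16a1 and from Slc16a1 to Slc2a1 the values of neighbours were apart in both labels.

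The order between genes depends on the gene length behind the FPKM. For 64.8% of the 5961 genes with at least 200 recovered fragments in a library, that length equalled the mean length of the gene's annotated transcripts, and for 4.83% it equalled the union of its exons. The mean transcript length was the one used for 8 of the 10 transporters. Slc15a2 has 14 annotated transcripts with a mean of 1151 bases, while its longest coding transcript has 3994, and Slc16a1 has 1 of 4426 bases. Scaled by the longest coding transcript instead, a choice made after seeing the data, Slc15a2 was at 0.555 ± 0.178 FPKM in knockout-labelled libraries and at 1.72 ± 0.291 FPKM in wild-type-labelled ones (SD, n = 3 each). Slc3a2 then came after Slc38a2 and Slc16a1, at 11.7 ± 1.06 FPKM in knockout-labelled libraries and 11.5 ± 0.730 FPKM in wild-type-labelled ones. Slc15a2 came 9th in knockout-labelled libraries and 8th in wild-type-labelled ones, where it lay below Slc2a12 without overlap. Which transcripts the muscle uses was not analysed here, and the ratio between labels is the same for any length.

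The other members of the peptide transport family described here had overlapping groups. Slc15a4, a lysosomal transporter of histidine and short peptides, was at 5.95 ± 0.443 FPKM in knockout-labelled libraries and at 5.98 ± 0.330 FPKM in wild-type-labelled ones (SD, n = 3 each, log2 difference -0.01). In wild-type-labelled libraries Slc15a2 and Slc15a4 thus had overlapping FPKM, and in those labelled knockout Slc15a2 was the lower in all 3. Slc15a3 had 3, 5 and 2 fragments in the knockout-labelled libraries and 4, 16 and 7 in wild-type-labelled ones, a ratio of 0.388 in mean FPKM with overlapping groups, and Slc15a1 had 1 fragment in all 6 libraries together. Naming these 3 genes was a choice made with their values in view.

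Of the genes listed for peptide transport and dipeptide handling, Slc15a4 among them, 3 of 9 tested were higher and 6 lower in the knockout-labelled libraries, with a median log2 difference of -0.04 and 0 past the test. Carns1, which makes carnosine, a dipeptide that PEPT2 can carry, was at 7.32, 7.25 and 7.73 FPKM in the knockout-labelled libraries and at 6.59, 6.45 and 5.76 FPKM in wild-type-labelled ones. Its groups did not overlap, in the direction opposite to Slc15a2 (log2 difference 0.22, limma adjusted p = 0.988). Carns1 overlaps Gm17552 on the other strand by 1825 exonic bases and AC109138.8 on the same strand by 1345, so its level is uncertain. Carnmt1, which methylates carnosine, was at 126 ± 23.5 FPKM in knockout-labelled libraries and 105 ± 11.3 FPKM in wild-type-labelled ones, and Slc9a3r2, a scaffold protein of membrane transporters, at 30.4 ± 4.03 and 29.7 ± 5.74 FPKM in the same order (SD, n = 3 each). The anchoring gene Pdzk1 was at 0 in every library.

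Over 7 lists of related genes, 0 of 88 tested members passed limma's adjusted test, and the groups did not overlap for 5 of the 88 (5.68%), against 9.48% of all genes. Their log2 differences ran from -0.47 to 0.47, with 32 higher and 56 lower in the knockout-labelled libraries. Of all 11383 genes tested, 4933 were higher and 6450 lower. Listed genes under the filter of 1 FPKM were not tested, and some of these had ratios near that of Slc15a2. Slc1a4, a neutral amino acid carrier, had 4, 5 and 3 fragments in the knockout-labelled libraries and 7, 12 and 17 in wild-type-labelled ones, a ratio of 0.338 in mean FPKM, and was chosen after its values were seen. For GLUT4 trafficking and the first steps of glucose use, 10 of 18 were higher and 8 lower, with a median of 0.01. Its most abundant members were Pygm, muscle glycogen phosphorylase, at 3261 ± 300.3 FPKM in knockout-labelled libraries and 2929 ± 144 FPKM in wild-type-labelled ones, and Pfkm, muscle phosphofructokinase, at 1676 ± 177 and 1599 ± 47.4 FPKM in the same order (SD, n = 3 each). Gm26513 overlaps 341 exonic bases of Pfkm on the same strand, and Senp1 overlaps 18 on the other. Of 8 further SLC2 genes only Slc2a8, encoding GLUT8, passed the filter of 1 FPKM, at 8.72 ± 1.40 FPKM in knockout-labelled libraries and 9.77 ± 1.62 FPKM in wild-type-labelled ones.

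**Figure D4:**
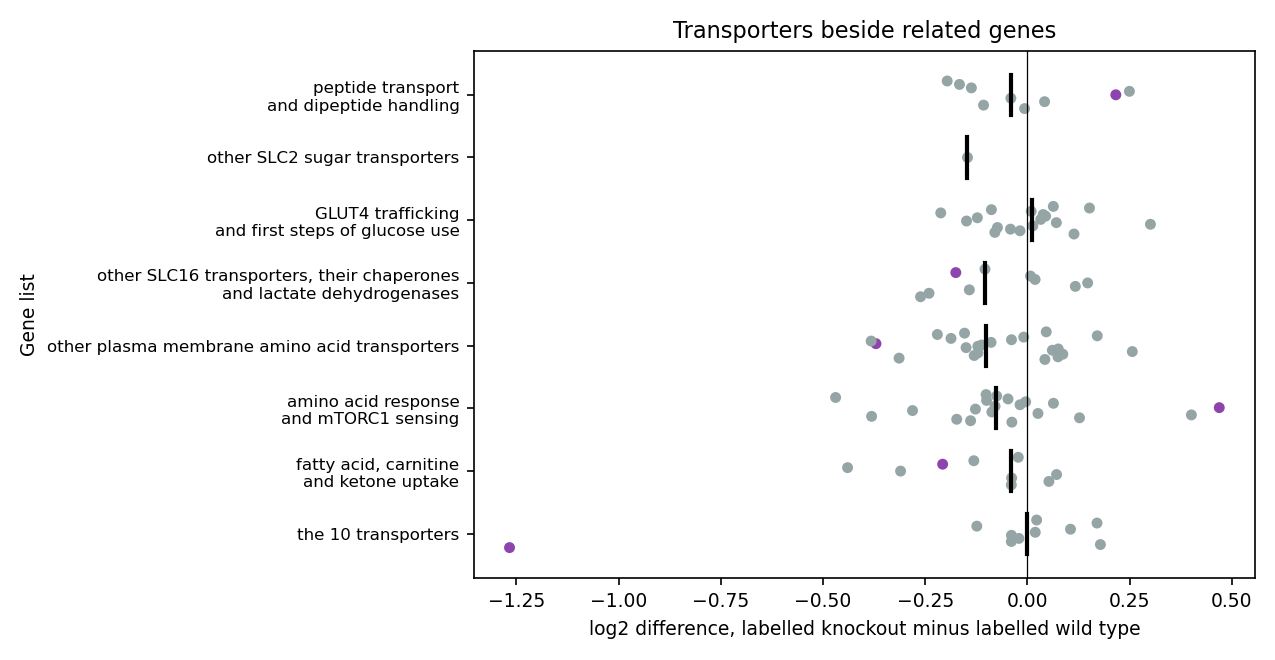
Log2 difference in log2(FPKM + 1), labelled knockout minus labelled wild type (horizontal axis), for the tested genes of 7 related lists and the 10 transporters. Each point is a gene, purple where the 3 values of the labels do not overlap, and black lines are list medians. The point at -1.27 is Slc15a2, the related genes shown lie between -0.47 and 0.47, and genes under 1 FPKM and marker lists are not shown.

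Around the lactate transporters, 4 of 9 tested genes were higher and 5 lower, with a median log2 difference of -0.10. Bsg, the chaperone basigin that brings MCT1 and MCT4 to the membrane, was at 404 ± 24.6 FPKM in knockout-labelled libraries and 399 ± 35.6 FPKM in wild-type-labelled ones. Ldha, the lactate dehydrogenase subunit of glycolytic muscle, was at 3189 ± 57.3 FPKM in knockout-labelled libraries and 3176 ± 207 FPKM in wild-type-labelled ones. Ldhb, the subunit of oxidative muscle, was at 228, 240.0 and 234 FPKM in the knockout-labelled libraries and at 268, 248 and 277 FPKM in wild-type-labelled ones. The Ldhb groups did not overlap (log2 difference -0.18, limma adjusted p = 0.988).

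In the list of further membrane transporters, mostly of amino acids but including the nucleobase carrier gene Slc43a3 and the creatine transporter gene Slc6a8, 8 of 22 tested were higher and 14 lower, with a median log2 difference of -0.10. Slc43a2, encoding the leucine carrier LAT4, was at 11.5, 10.1 and 9.87 FPKM in the knockout-labelled libraries and at 11.9, 17.7 and 12.4 FPKM in wild-type-labelled ones, without overlap (log2 difference -0.37, limma adjusted p = 0.988), and Gm45606 overlaps 922 of its exonic bases on the other strand. The taurine transporter gene Slc6a6 was at 98.6 ± 4.90 FPKM in knockout-labelled libraries and 113 ± 17.5 FPKM in wild-type-labelled ones, and Gm44981 overlaps 117 of its exonic bases on the other strand. Of 20 genes of the amino acid response and of mTORC1 sensing, 5 were higher and 15 lower, with a median of -0.08. Castor2, a relative of the arginine sensor CASTOR1, was at 43.2, 48.7 and 48.7 FPKM in the knockout-labelled libraries and at 31.8, 38.8 and 30.5 FPKM in wild-type-labelled ones, without overlap (log2 difference 0.47, limma adjusted p = 0.988). Atf4, the transcription factor of the amino acid response, was at 77.3 ± 3.796 FPKM in knockout-labelled libraries and 79.5 ± 5.29 FPKM in wild-type-labelled ones, and Lamtor1, a lysosomal anchor of mTORC1, at 92.8 ± 5.20 and 98.0 ± 2.50 FPKM in the same order (SD, n = 3 each), with 600 exonic bases of Lamtor1 overlapped by Lrrc51 on the other strand.

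Of 9 genes for the uptake of fatty acids, carnitine and ketone bodies, 2 were higher and 7 lower, with a median log2 difference of -0.04. Fabp3, the fatty acid-binding protein of muscle fibres, was at 651, 474 and 535 FPKM in the knockout-labelled libraries and at 775, 939 and 568 FPKM in wild-type-labelled ones (log2 difference -0.44, limma adjusted p = 0.988). Oxct1, which activates ketone bodies for oxidation, was at 293 ± 41.8 FPKM in knockout-labelled libraries and 296 ± 24.7 FPKM in wild-type-labelled ones. On the other strand BC037032 overlaps 467 exonic bases of Oxct1, and Zcchc17 and Gm10570 overlap 81 and 80 of Fabp3. Fabp4, the binding protein of adipocytes and small vessels, was at 72.0 ± 1.88 FPKM in knockout-labelled libraries and 83.4 ± 5.92 FPKM in wild-type-labelled ones, without overlap.

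Some markers of fibre type and of other cells were lower in the knockout-labelled libraries, as Slc15a2 was, and others were not. Of 8 tested markers of fast-glycolytic fibres 6 were higher and 2 lower, with a median log2 difference of 0.06. Of 8 skeletal muscle markers 5 were higher and 3 lower, with a median of 0.05. Myh4 and Actn3 are on both lists, and Mb is on the lists of skeletal muscle and of slow and oxidative fibres. In bulk muscle, fewer cells of a type and less RNA per cell cannot be told apart. All 11 markers of slow and oxidative fibres were lower in the knockout-labelled libraries, with a median log2 difference of -1.27 and a lowest of -2.02. Of these 11, 0 passed the adjusted test, and 7 had an unadjusted limma p under 0.05, while 3.31% of all genes tested were lower with such a p. For 4 of the 11 the groups did not overlap, against 5.64% of all genes that were lower without overlap. The summed FPKM of the 11 ran from 5844 to 7709 in knockout-labelled libraries and from 8389 to 10163 in wild-type-labelled ones, without overlap. Most of that sum was Mb, encoding myoglobin, at 5701 ± 410 FPKM in knockout-labelled libraries and 6546 ± 158 FPKM in wild-type-labelled ones (SD, n = 3 each, log2 difference -0.20), and Gm49540 overlaps 412 of its exonic bases on the other strand. Myh2, the myosin of fast oxidative fibres, was at 987, 973 and 297 FPKM in the knockout-labelled libraries and at 926, 1638 and 1290.4 FPKM in wild-type-labelled ones (log2 difference -0.93, limma adjusted p = 0.988). The Myh2 groups overlapped, library 3 labelled knockout was the lowest of the 6, and 9430073C21Rik overlaps 237 of its exonic bases on the other strand.

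All 5 tested adipocyte markers of 6 were lower too, with a median log2 difference of -0.40. Of these 5, 0 passed the adjusted test, and 3 had an unadjusted limma p under 0.05, while 3.31% of all genes tested were lower with such a p. The sums of the 6 were 85.1 to 97.55 FPKM in knockout-labelled libraries and 97.63 to 141 FPKM in wild-type-labelled ones, most of it Fabp4. Cfd, encoding the adipocyte protein adipsin, was at 12.2, 8.10 and 11.8 FPKM in the knockout-labelled libraries and at 15.6, 23.4 and 35.9 FPKM in wild-type-labelled ones, without overlap (log2 difference -1.10, limma adjusted p = 0.988). All 6 tested macrophage markers (median -0.38), all 6 fibroblast markers (median -0.44) and all 8 endothelial markers (median -0.08) were lower as well. Of these markers 0 passed the adjusted test, and the sums of these lists overlapped between labels. The log2 difference of the endothelial marker Pecam1 was only -0.001, and 6450 of all 11383 genes tested were lower. The macrophage sums were 23.4 to 28.7 FPKM in knockout-labelled libraries and 22.6 to 59.0 FPKM in wild-type-labelled ones, and the fibroblast sums 187 to 260.0 and 184 to 374 FPKM in the same order. Of 6 tested nerve and Schwann cell markers 3 were higher and 3 lower, with sums of 86.2 to 101 FPKM in knockout-labelled libraries and 88.6 to 109 FPKM in wild-type-labelled ones. None of these lists had a marker at 0 in every library, and their part in the Slc15a2 value was not tested.

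The genes whose levels ran most like Slc15a2 over the 6 libraries, among the 7416 with a mean of at least 5 FPKM, were Snx17, Zfp467 and Fkbp1a, with Pearson r of 0.991, 0.971 and 0.969 on the log2 scale. The 6 points share 2 labels that also divide Slc15a2, so these values describe the libraries only. Snx17, encoding a sorting nexin, was at 29.4, 28.1 and 29.7 FPKM in the knockout-labelled libraries and at 32.9, 33.7 and 33.5 FPKM in wild-type-labelled ones, and other genes overlap its exons on the other strand. For Slc2a4 the most similar gene was Coq10a, of the coenzyme Q pathway (r = 0.986), and for Slc38a2 it was Slc43a3, a nucleobase carrier (r = 0.995). Slc43a3 was at 36.7, 30.8 and 26.7 FPKM in the knockout-labelled libraries and at 40.9, 29.4 and 30.3 FPKM in wild-type-labelled ones, with library 1 highest in both labels as for Slc38a2. Of all pairs among the 10 transporters, Slc2a12 and Slc38a2 had the highest r (0.85) and Slc2a4 and Slc7a5 the lowest (-0.82), as a description of 6 libraries.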

How the data were processed

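RNA-seq of 6 libraries (3 labelled KO, 3 labelled wild type by their titles) was deposited by the authors as FPKM per gene, 1 table per library. TopHat2 2.1.1, Cufflinks 2.2.1 and build mm10 are named in the submitters' processing notes. Their roles, the annotation and the handling of strand are not stated there. Symbols, positions and transcripts came from GENCODE M21 on mm10.

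Whole fragments came out for all 23559 genes above 0 in a library (100.0%), within 0.002 of a fragment, taking the mean transcript length where it worked and otherwise the smallest length that did. A single fragment on 1 kb corresponded to between 0.0921 and 0.118 FPKM, depending on the library. limma 3.58.1 in R 4.3.3 was fitted to log2(FPKM + 1) with a mean-variance trend over the 11383 genes whose mean reached 1 FPKM, with Benjamini-Hochberg adjustment and a threshold of 0.05. The fit was tested on simulated data. Ratios and Mettl21e were compared by exact permutation tests. Named genes were the 10 transporters, Mettl21e, the 2 most abundant members of each list, up to 2 members per pathway list whose groups did not overlap, and the 3 genes most correlated with each transporter. Some of these correlated and marker genes are not printed. The 7 related lists and 12 marker lists, like the transporters, were chosen with earlier results of these data known. Alternatives were median subtraction, quantile normalization, a pseudocount of 0.1, other filters, the replicate number as a block, leaving out each library, and limma voom on recovered fragments. Libraries of a label differed beyond counting noise (chi-square per degree of freedom 7.05 to 19.5), so none was treated as a repeat of another. Python 3.11.15 and matplotlib 3.10.9 were used.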

Additional observations from a re-analysis of the deposited data

How the results depend on the processing

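The log2 difference of Slc15a2 stayed negative under all 12 alternatives that gave a value, from -1.66 to -1.11. It was -1.62 with a pseudocount of 0.1 and -1.66 with limma voom on recovered fragments, and between -1.42 and -1.11 with 1 library left out. Since its groups did not overlap, neither leaving out 1 library nor a pseudocount of 0.1 could change the sign. A fit without the filter and a fit with the block return the same difference by calculation. The gene was chosen by this contrast, so the constant sign describes these libraries only. The mean of Slc15a2 was under the filter of 5 FPKM. Scaled by the longest coding transcript, its place among the transporters was 9 in knockout-labelled libraries and 8 in wild-type-labelled ones. Of the other 9 transporters 0 passed the test under any alternative, but small differences changed sign. With median subtraction they were 0.0075 for Slc2a3, 0.026 for Slc2a4 and 0.0078 for Slc2a12, and with quantile normalization 0.011, 0.0045 and 0.0083 in the same order. Slc2a3 was at 0.030 with a pseudocount of 0.1 and at 0.11 with voom. With 1 library left out, log2 differences ran from -0.30 to 0.010 for Slc2a3, -0.13 to 0.038 for Slc2a4, -0.14 to 0.13 for Slc2a12, -0.044 to 0.084 for Slc16a1, -0.023 to 0.19 for Slc16a3, -0.30 to 0.15 for Slc38a2 and -0.043 to 0.084 for Slc3a2. The cause was not tested. Slc2a1 and Slc7a5 stayed positive throughout. The number of genes called by limma was 0 to 3 with 1 library left out (1 without library 3 labelled knockout, 1 without library 1 and 3 without library 3 labelled wild type) and 0 under every other alternative, where 339 to 987 had an unadjusted p under 0.05. For the 40 other genes named from the related and marker lists, 518 of 519 alternative values moved by less than the spread between replicates. Leaving out 1 library cannot move a value by more than that spread, and the filters and the block do not move it. For these settings the count was therefore fixed in advance and is no check. Mettl21e and genes named only for their correlation with a transporter were not included.

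Same-numbered libraries did not deviate together (r = 0.02, -0.04 and 0.02 over genes), so the numbers were not taken as pairs. With the replicate number as a block, 0 genes were called. Each number has a library of each label, so the block cannot change a log2 difference, and Slc15a2 stayed at -1.27 for that reason. Fragment numbers limit Slc15a2, Slc2a3 and Slc7a5 most, and intervals from them cover counting error only.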
